A study of Mus musculus with 4 samples.

Results

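Axon guidance ligands and receptors are the 64 protein-coding genes, of 21883 in the RefSeq annotation of mouse (GRCm38.p6), that belong to the semaphorins, plexins, neuropilins, ephrins, Eph receptors, Slits, Robos and netrins. Their rule uses gene symbols and no peak, although it was set with earlier results of these data known, and takes 35 ligand and 29 receptor genes. They were described through peak lists from ChIP-seq, which maps where a protein sits on chromatin, of an HA-tagged Fbxl10 made by mouse embryonic fibroblasts (MEFs). The induced list came from MEFs given doxycycline at 1 µg/ml for 48 hours to switch on HA-Fbxl10. The non-induced list came from MEFs of the same labelled genotype, overexpressing HA-tagged Fbxl10, without doxycycline. The labels name no promoter, founder line or animal age. The protocol mentions independent samples, but 1 list per condition was analysed, so no difference between conditions has a replicate check and no test was made. Peak lists do not measure expression, so the labelled cell type could not be checked against RNA markers.

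Fbxl10, also called Kdm2b, is a histone lysine demethylase whose CXXC zinc finger binds unmethylated CpG dinucleotides and which brings a variant Polycomb complex to CpG-rich promoters. Semaphorins are secreted or membrane-bound guidance cues that signal through plexins, with neuropilins as co-receptors of the secreted class. Ephrins are cell-surface ligands of the Eph receptor tyrosine kinases, Slits bind Robos, and netrins bind Dcc and Unc5 receptors. The same families steer migrating neural crest, endothelial and mesenchymal cells outside the nervous system.

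The promoter sequences of 6 guidance genes are shown, picked by peak score or by CpG content, with 2 to 56 CpG in the window. Each is 300 bases of RefSeq sequence (GRCm38.p6), from 250 bases before to 50 after an annotated start, written 5′ to 3′ on the strand of the gene, with every CG in capitals. The first 4 had the highest-scoring induced peaks over a promoter window. Epha8 and Sema4d had no induced peak within 5 kb or inside the gene. Among single windows of such genes, theirs held the most CpG and the fewest, Sema4d sharing the last place with Robo4. The most CpG-rich window of Sema4d held 3.
Nrp2, chr1:62703067-62703366, plus strand: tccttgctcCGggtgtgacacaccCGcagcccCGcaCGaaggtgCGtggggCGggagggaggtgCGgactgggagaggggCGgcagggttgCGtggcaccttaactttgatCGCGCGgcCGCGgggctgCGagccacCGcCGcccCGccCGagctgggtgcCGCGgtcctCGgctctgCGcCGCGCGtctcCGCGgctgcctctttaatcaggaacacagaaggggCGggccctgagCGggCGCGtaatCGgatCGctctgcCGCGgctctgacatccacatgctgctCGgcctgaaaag
Sema5b, chr16:35541112-35541411, plus strand: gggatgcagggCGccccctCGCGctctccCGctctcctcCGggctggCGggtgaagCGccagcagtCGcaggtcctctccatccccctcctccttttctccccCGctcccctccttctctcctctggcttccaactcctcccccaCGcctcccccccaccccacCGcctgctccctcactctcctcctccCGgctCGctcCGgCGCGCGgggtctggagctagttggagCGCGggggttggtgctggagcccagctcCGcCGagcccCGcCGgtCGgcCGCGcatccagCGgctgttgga
Robo1, chr16:72662899-72663198, plus strand: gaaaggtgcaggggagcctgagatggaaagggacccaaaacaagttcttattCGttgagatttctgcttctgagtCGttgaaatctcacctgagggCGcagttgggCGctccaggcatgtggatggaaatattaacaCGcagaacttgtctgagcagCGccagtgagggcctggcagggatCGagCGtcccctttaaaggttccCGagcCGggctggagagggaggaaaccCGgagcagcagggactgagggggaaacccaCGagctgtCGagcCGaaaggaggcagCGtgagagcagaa
Sema4c, chr1:36557508-36557807, minus strand: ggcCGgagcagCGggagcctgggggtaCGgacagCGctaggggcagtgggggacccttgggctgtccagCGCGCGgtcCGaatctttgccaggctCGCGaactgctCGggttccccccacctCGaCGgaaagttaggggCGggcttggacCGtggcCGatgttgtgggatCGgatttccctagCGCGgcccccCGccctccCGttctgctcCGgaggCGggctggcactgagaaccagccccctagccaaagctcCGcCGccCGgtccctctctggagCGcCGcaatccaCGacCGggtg
Epha8, chr4:136956767-136957066, minus strand: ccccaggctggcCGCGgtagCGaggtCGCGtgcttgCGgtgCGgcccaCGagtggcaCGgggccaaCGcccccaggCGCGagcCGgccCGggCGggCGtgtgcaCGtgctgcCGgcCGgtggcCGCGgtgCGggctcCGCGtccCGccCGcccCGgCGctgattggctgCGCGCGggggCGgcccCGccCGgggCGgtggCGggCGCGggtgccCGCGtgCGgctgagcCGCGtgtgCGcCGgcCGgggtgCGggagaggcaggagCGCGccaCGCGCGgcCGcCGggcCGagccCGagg
Sema4d, chr13:51756634-51756933, minus strand: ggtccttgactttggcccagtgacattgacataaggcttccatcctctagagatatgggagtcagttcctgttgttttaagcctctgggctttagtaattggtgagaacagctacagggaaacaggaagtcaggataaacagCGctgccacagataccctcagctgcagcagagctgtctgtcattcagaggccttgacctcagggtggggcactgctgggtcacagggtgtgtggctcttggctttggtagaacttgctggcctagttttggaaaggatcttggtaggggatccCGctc
The windows of Nrp2, Sema5b, Robo1 and Sema4c held 37, 27, 15 and 30 CpG. Those of Epha8 and Sema4d held 56 and 2. Of the 17491 protein-coding genes with a promoter in the table, 8.19% had a window with at least as many CpG as that of Nrp2, and 0.292% one with at least as many as that of Epha8. A high CpG count was therefore present both with and without an induced peak.

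In the induced list, 18 of the 64 guidance genes (28.1%, exact 95% binomial interval 17.6 to 40.8) had a peak within 1 kb of either end of the gene, against 13.4% of all protein-coding genes. In the non-induced list 1 did (1.56%, 0.0396 to 8.40), Nrp2, against 1.59% of all. Intervals cover counting error only, and neighbouring genes can share a peak. With peaks within 5 kb or inside the gene included, 29 guidance genes (45.3%, 32.8 to 58.3) had an induced peak, against 21.4% of all. By the same measure 20 (31.3%, 20.2 to 44.1) had a non-induced peak, against 12.6% of all. Within 5 kb of an end alone, 24 (37.5%) had an induced peak, against 18.4% of all, and 3 (4.69%) a non-induced peak, against 5.36%. Both lists marked 8 guidance genes within 5 kb or inside, the induced list alone 21, the non-induced list alone 12, and neither list 23 (12.5%, 32.8%, 18.8% and 35.9%). Over all protein-coding genes these shares were 4.09%, 17.3%, 8.55% and 70.1%.

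**Figure D1:**
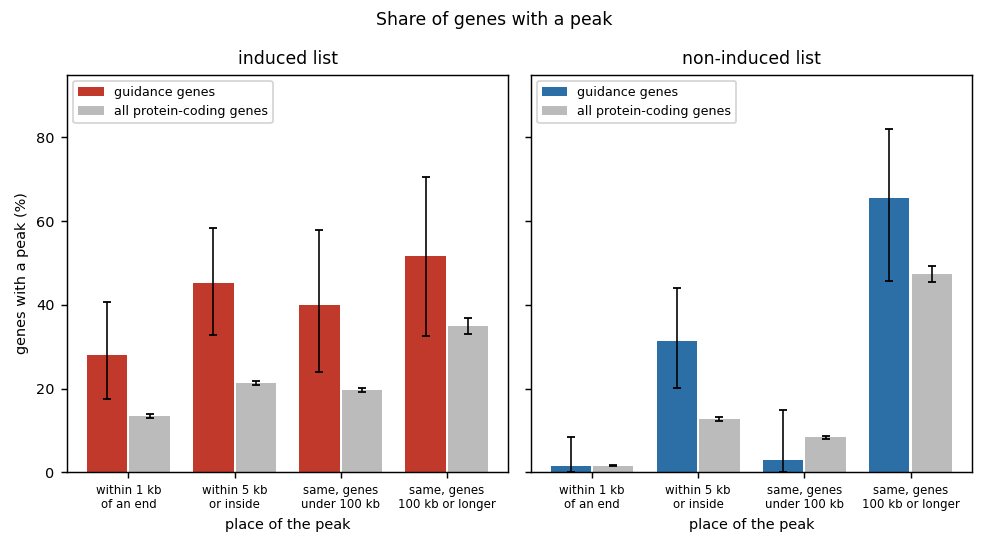
Share of genes (%) with a peak in the induced list (left) and the non-induced list (right), for the 64 guidance genes (coloured bars) and all 21883 protein-coding genes (grey bars), by place of the peak and by gene length, with exact 95% binomial intervals. The coloured bar is higher than the grey one at gene ends in the induced list (28.1% against 13.4%) and level with it there in the non-induced list (1.56% against 1.59%).

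Each peak carries a score that the authors' caller wrote, at least 50 in either list, by a formula that no source used here states. The 40 induced peaks at guidance genes had scores of 50.1 to 211 (median 78.2), and the 67 non-induced peaks scores of 50.1 to 98.4 (median 60.9). Over all peaks the medians were 66.6 in the induced list and 60.2 in the non-induced list. Of the induced peaks at guidance genes 14 (35.0%) had a score of at least 100, against 21.2% of all induced peaks. Among induced peaks at the ends of all protein-coding genes 30.0% had such a score. Of the non-induced peaks at guidance genes 0 did, against 3.59% of all non-induced peaks. The 19 induced peaks at the ends of guidance genes had a median score of 80.8, close to the 78.6 of all 2590 induced peaks at gene ends. Scores were ranked within a list, and a common scale of both lists was not tested.

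**Figure D2:**
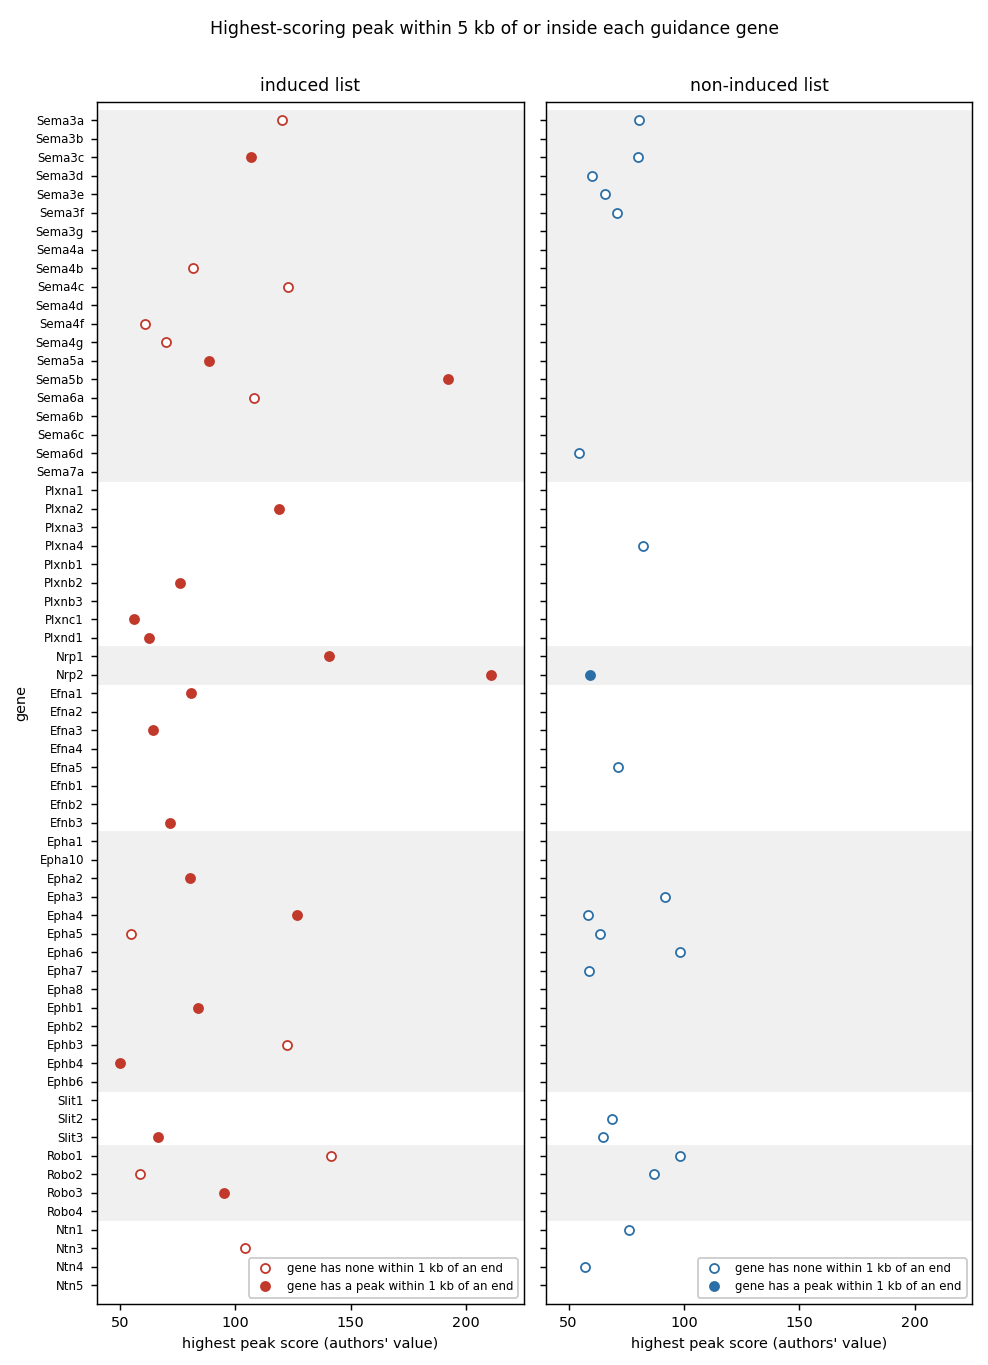
Highest peak score (the authors' value) within 5 kb of or inside each of the 64 guidance genes, with the induced list on the left and the non-induced list on the right. Filled points mark genes with a peak within 1 kb of an end, which number 18 in the induced list and 1 in the non-induced list. Nrp2, Sema5b, Robo1 and Nrp1 have the highest induced points.

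Among semaphorin receptors, both neuropilins and 4 of 9 plexins (44.4%, interval 13.7 to 78.8) had an induced peak at an end, against 13.4% of all genes. With 2 neuropilins the interval ran from 15.8% to 100%. Nrp2 (gene 18187, chromosome 1, 62703317 to 62818692, mm10) binds class 3 semaphorins and VEGF-C and had 4 induced peaks around its start. The strongest, from 62702665 to 62704216, covered the start with a score of 211 and ranked 117 of 5497. The next, 1431 bases into the gene, scored 193, and the outer ones 70.1 and 51.8. In the non-induced list Nrp2 had 1 peak, from 62703894 to 62704418, with a score of 59.4, rank 5590 of 10532. Nrp1, the co-receptor of Sema3a and of VEGF-A, had an induced peak over the outermost start of the gene (score 141, chromosome 8, 128357695 to 128358815) and no non-induced peak. That peak also lay within 1 kb of the noncoding genes A930035F09Rik and Mir1903.

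Plexins are the signalling receptors of semaphorins. Plxna2, a partner of neuropilins and receptor of class 6 semaphorins, had an induced peak beginning 104 bases inside its start (score 119). Plxnb2, a receptor of class 4 semaphorins, had 3 induced peaks, with scores of 76.2, 52.3 and 50.1. The highest and the lowest of these overlapped promoter windows of separate annotated starts, and the highest also lay within 1 kb of an end of Dennd6b. Plxnd1, the endothelial receptor of Sema3e, scored 62.7, and Plxnc1, the receptor of Sema7a, scored 56.4. None of these 4 had a non-induced peak. Of the other plexins, Plxna4 had 2 non-induced peaks inside the gene (82.1 and 53.0) and no induced peak, and Plxna1, Plxna3, Plxnb1 and Plxnb3 had none in either list.

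Of the 20 semaphorins, 3 had an induced peak at an end (15%, interval 3.21 to 37.9), close to the 13.4% of all genes. An induced peak within 5 kb or inside was found at 9 (45%, 23.1 to 68.5), against 21.4% of all genes. By the same measure 6 had a non-induced peak, inside the gene (30%, 11.9 to 54.3), against 12.6%, a share within that interval. The transmembrane class 5 genes were both marked at the start. Sema5b had 3 induced peaks, the highest over its outermost start with a score of 192.4 (chromosome 16, 35540025 to 35541326), the next 1184 bases inside with 154, and another 15907 bases inside with 65.1. Sema5a scored 88.6, 447 bases inside its start and within 1 kb of the noncoding gene Snhg18. Neither had a non-induced peak. Of the class 4 genes, 4 of 6 had an induced peak within 5 kb or inside and 0 of 6 a non-induced peak, beside 21.4% and 12.6% of all genes. With 6 genes, 1 of them 100 kb or longer, a count of 0 is not apart from that share. None of these 4 peaks was within 1 kb of an end. Sema4c, a ligand of Plxnb2, had a peak of score 123 over the inner of its annotated starts, and Sema4b one of score 81.7 over an internal start. The Sema4g peak (70.2) lay 2923 bases beyond the gene and within 1 kb of Mrpl43 and Twnk, which serve mitochondrial translation and DNA replication. The Sema4f peak (60.8) lay inside, 3924 bases from the far end. In class 6, Sema6a had an induced peak of score 108, 1410 bases from the high end of the gene. Sema6d had 1 non-induced peak (54.3).

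The secreted class 3 semaphorins, which repel axons through neuropilins and plexin-A receptors, included 2 of 7 with an induced peak and 5 of 7 with a non-induced peak within 5 kb or inside, beside 21.4% and 12.6% of all genes. Of the 5, 4 were 100 kb or longer, a length class in which 47.4% of all genes had a non-induced peak. Sema3c, a cue of cardiac neural crest, had an induced peak of score 107 ending 109 bases before its start, and non-induced peaks of 80.2 and 56.8 inside the gene. Sema3a, the prototype growth cone collapsing factor, had 1 induced peak (120.4), 2293 bases from an internal annotated start and deep inside the gene. In the non-induced list Sema3a had 6 peaks, with scores of 54.7 to 80.5. Sema3d (3 peaks), Sema3e (2 peaks) and Sema3f (1 peak) had non-induced peaks alone, with highest scores of 60.1, 65.98 and 71.0.

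Of 14 Eph receptors 4 had an induced peak at an end (28.6%, interval 8.39 to 58.1), against 13.4% of all genes. Within 5 kb or inside 6 did (42.9%, 17.7 to 71.1), against 21.4%. Both shares over all genes lay within these intervals. Epha4, a receptor for ephrins of both classes, had the highest induced peak, beginning 116 bases inside its start (score 127, chromosome 1, 77513817 to 77514991). It also had a second upstream (53.7). Its single non-induced peak (58.6) lay 2703 bases inside the opposite end. Ephb3 followed with an induced peak of score 123, which missed the 1 kb limit at 1027 bases from the outer end of the gene. That peak lay 852 bases from the annotated start. Ephb1 scored 84.1, Epha2, the receptor of ephrin-A1 in epithelia, 80.2 over its start, and Ephb4, the venous receptor of ephrin-B2, 50.1 at 150 bases before its start, close to the lowest score listed. None of Ephb1, Ephb3, Ephb4 and Epha2 had a non-induced peak. Non-induced peaks were found at 5 of the 9 EphA genes and 0 of the 5 EphB genes, beside 12.6% of all genes. All 5 were 100 kb or longer, a class in which 47.4% of all genes had one, and 2 EphB genes were in that class. Epha6 had 7 of them (56.5 to 98.4), Epha5 4 (52.4 to 63.8), Epha3 3 (51.7 to 92.0) and Epha7 2 (53.0 and 59.0). Of these, Epha5 also had an induced peak (54.9), in the far part of the gene.

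The 8 ephrins had 4 peaks in the induced list and 1 in the non-induced list. An induced peak was found at 3 of them (37.5%, interval 8.52 to 75.5), at an end in each case. Of all genes 13.4% had one at an end and 21.4% within 5 kb or inside. Within 5 kb or inside 1 ephrin had a non-induced peak (12.5%, 0.316 to 52.7), against 12.6%. These shares over all genes lay within the intervals. Efna1 had an induced peak over its start (80.8). Efnb3, a transmembrane ephrin of the midline, had one at its high end (71.6), which also lay within 1 kb of an end of Wrap53, a gene for a telomerase assembly factor. Efna3 had an induced peak over the end opposite to its start (54.9) and another inside (64.2), each within 1 kb of a noncoding gene, Gm34014 and Gm15998. None of these ephrins had a non-induced peak. Efna5 had 1 non-induced peak (71.2), 2556 bases inside its start, and no induced peak. Efna2, Efna4, Efnb1 and Efnb2 had none in either list.

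Slits and Robos are the ligands and receptors of midline repulsion, and Robo2 and Robo1 had the most non-induced peaks of the guidance genes. They are also the longest guidance genes, at 1555 and 1020 kb, and the counts here are not per length. The Robos had 5 of the 40 induced peaks and 22 of the 67 non-induced peaks at guidance genes. By gene, 3 of 4 Robos had an induced peak within 5 kb or inside (75%, interval 19.4 to 99.4), against 21.4% of all genes. A non-induced peak was found at 2 of 4 (50%, 6.76 to 93.2), against 12.6% of all genes and 47.4% of those of 100 kb or longer. These shares over all genes lay within the intervals. Slit3 had an induced peak 483 bases inside its start (66.7) and non-induced peaks of 64.9 and 61.9 far inside. Slit2 had 4 non-induced peaks (50.8 to 68.8) and no induced peak, and Slit1 had none. Robo3, the divergent receptor of commissural axons, had an induced peak that covered its annotated start (95.04) and no non-induced peak. Robo1 had 2 induced peaks, of which 1 covered an annotated start inside the gene (142, chromosome 16, 72662829 to 72663970, rank 451 of 5497) and the other (56.2) lay far from it. The same gene had 8 non-induced peaks, with scores of 53.8 to 98.1. Robo2 had 2 induced peaks (58.7 and 52.5) and 14 non-induced peaks (50.1 to 87.1), the most of any guidance gene. Robo4, the endothelial member, had none.

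Netrins attract or repel axons through Dcc and Unc5 receptors. Ntn3 had an induced peak inside the gene (104), within 1 kb of an end of the neighbouring Tbc1d24, and no non-induced peak. Ntn1 had 1 non-induced peak (76.3) and Ntn4 2 (57.3 and 52.0), with no induced peak at either. Ntn5 had none. By role, 11 of 29 receptor genes had an induced peak at an end (37.9%, interval 20.7 to 57.7). Of 35 ligand genes 7 did (20%, 8.44 to 36.9). These intervals overlap. The share of all protein-coding genes, 13.4%, lay within the ligand interval and below the receptor interval.

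The 23 guidance genes without a peak in either list were Sema3b, Sema3g, Sema4a, Sema4d, Sema6b, Sema6c, Sema7a, Plxna1, Plxna3, Plxnb1, Plxnb3, Efna2, Efna4, Efnb1, Efnb2, Epha1, Epha8, Epha10, Ephb2, Ephb6, Slit1, Robo4 and Ntn5. Plxna3, Plxnb3 and Efnb1 lie on chromosome X, where 0.414% of all protein-coding genes had an induced and 1.45% a non-induced peak within 5 kb or inside. At the 1 kb limit the nearest genes inside were Plxnd1 (770 bases), Plxnb2 (571) and Slit3 (483) in the induced list, and those outside Ephb3 (1027), Sema6a (1410) and Ntn3 (1484). At 5 kb Sema4f (3924), Sema4c (2957) and Sema4g (2923) lay inside, and Sema3f (5063), Sema4b (5871) and Epha1 (8755) outside. In the non-induced list Nrp2 (577) lay inside 1 kb, Efna5 (2556) and Epha4 (2703) inside 5 kb, and Sema3c (5458), Efnb2 (6416) and Ntn4 (6874) outside.

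Most induced peaks at guidance genes lay close to a start, and all non-induced peaks but that of Nrp2 lay more than 1 kb from one where starts were known. The promoter table gave strand and starts for 56 of the 64 genes. Of the 38 induced peaks at these genes 24 (63.2%) were within 1 kb of an annotated start of the gene, and of the 63 non-induced peaks 1 (1.59%). The median gap to the nearest annotated start was 0.457 kb in the induced list and 174 kb in the non-induced list. This gap was not measured for all peaks. Of all peaks, 2590 of 5497 induced and 332 of 10532 non-induced ones lay within 1 kb of a protein-coding gene's end. At guidance genes 19 of 40 and 1 of 67 did. The contrast between the lists was thus also present over all peaks, which include those between genes. An induced peak within 1 kb of an annotated start was found at 20 of the 56 genes (35.7%, interval 23.4 to 49.6), against 14.0% of all genes in the table. A non-induced peak was found there at 1 (1.79%, 0.0452 to 9.55), against 0.972%. Of the 19 induced peaks at gene ends 17 were at the start, 1 at the opposite end, and 1 at a gene, Efnb3, whose strand the table does not give. At the starts, midpoints lay from 1027 bases upstream, coded as -1027, to 933 downstream, 9 of the 17 downstream and 8 upstream.

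**Figure D3:**
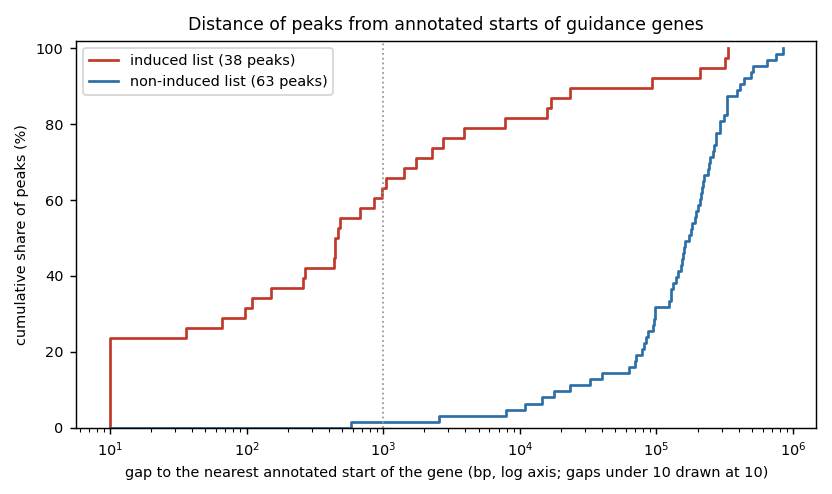
Cumulative share (%) of peaks at guidance genes of known strand against the gap in bases to the nearest annotated start of the gene, on a log axis, for 38 induced and 63 non-induced peaks. The dotted line marks 1 kb, by which the induced curve has reached 63.2% and the non-induced curve 1.59%.

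Guidance genes are long, and length bears on any count of peaks inside genes. Their median length was 40.2 kb, against 17.2 kb for all protein-coding genes, and 29 of 64 (45.3%) were 100 kb or longer, against 11.1%. Of the 20 genes with a non-induced peak, 19 were in this class, Sema3f at 29.0 kb being the exception. Of the 29 long guidance genes 19 (65.5%, interval 45.7 to 82.1) had a non-induced peak, against 47.4% of all long genes, a share within that interval. Of the 35 shorter ones 1 had (2.86%, 0.0723 to 14.9), against 8.32%. In the induced list 15 of the long guidance genes had a peak (51.7%, 32.5 to 70.6, against 34.8%), and 14 of the shorter ones (40%, 23.9 to 57.9, against 19.7%).

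**Figure D4:**
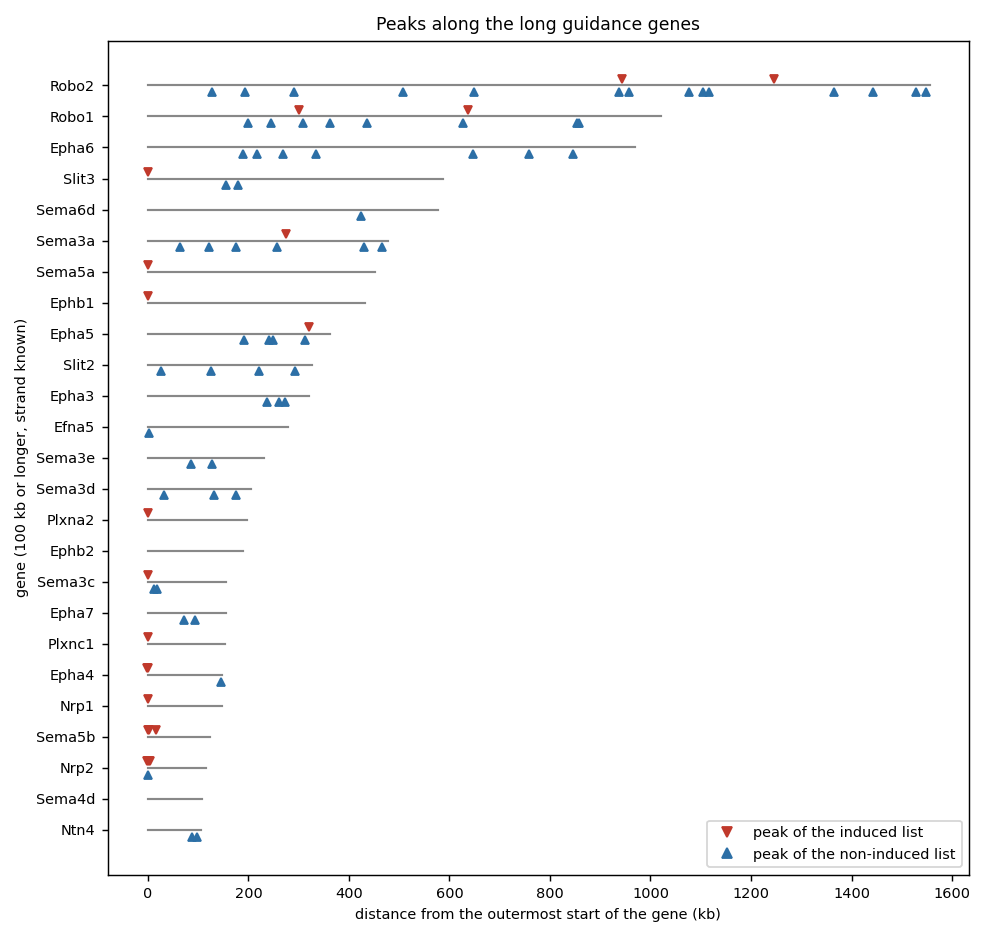
Peaks along the 25 guidance genes of 100 kb or longer whose strand is known, as distance in kb from the outermost start of the gene (left end of each line). Red triangles above a line are induced peaks, blue triangles below it non-induced peaks. Induced peaks gather at the left ends of Slit3, Sema5a, Ephb1, Plxna2 and others, while Robo2 carries 14 and Robo1 8 non-induced peaks along its length.

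Per length, non-induced peak midpoints fell inside guidance genes at 6.09 per Mb (exact Poisson interval 4.72 to 7.74, 67 peaks), against 3.65 per Mb inside all protein-coding genes and 4.06 between them. The higher rate was found on chromosomes 5 and 16. With non-induced peaks these hold the class 3 semaphorins Sema3a, Sema3c, Sema3d and Sema3e, Slit2, Epha3, Epha5, Epha6, Robo1 and Robo2. They also hold Ephb4, Ephb3 and Sema5b, which had no non-induced peak. These chromosomes were chosen after seeing the data, so the rates by this split are descriptive and test nothing. On chromosomes 5 and 16 the guidance genes had 53 peaks, or 9.15 per Mb (6.85 to 11.97). All protein-coding genes there had 3.54 per Mb, and those of 100 kb or longer 4.09. On the other chromosomes they had 14, or 2.69 per Mb (1.47 to 4.51), against 3.66 for all protein-coding genes there and 4.11 for those of 100 kb or longer. Both of these rates lay within the interval. In the 1 Mb on each side of the long guidance genes of chromosomes 5 and 16, outside guidance genes, the rate was 8.15 per Mb (6.87 to 9.58). This interval overlaps that of the genes themselves. Inside guidance genes induced midpoints fell at 2.73 per Mb (1.84 to 3.89, 30 peaks), against 3.23 for all protein-coding genes. By length the order differed: guidance genes under 100 kb had 18.4 per Mb (9.78 to 31.4), against 5.75 for all genes of that class, and the longer ones 1.65 (0.962 to 2.64), against 1.51. Without chromosomes 5 and 16 the induced rate was 4.03 per Mb (2.50 to 6.17), against 3.26 for all genes there. More than 5 kb from either end the induced rate was 0.868 per Mb (0.397 to 1.65), against 1.27 for all.

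Where both lists marked a guidance gene, their peaks did not overlap, with 1 exception. Of all protein-coding genes, 896 (4.09%) were marked by both lists within 5 kb or inside. How often their peaks overlapped was not counted, so this cannot be called particular to guidance genes. The guidance genes marked by both lists were Nrp2, Epha4, Epha5, Sema3a, Sema3c, Slit3, Robo1 and Robo2. Only at Nrp2 did peaks of both lists overlap, by 323 bases (61.5% of the shorter peak), just inside the gene's start. The nearest peaks of the lists were 4375 bases apart at Robo2, 6591 at Epha5, 7256 at Robo1, 11101 at Sema3c and 16775 at Sema3a. At Epha4 and Slit3 they were 143428 and 154534 bases apart.

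Promoters of guidance genes held more CpG than those of all genes, with a median of 22 in the most CpG-rich window of each gene, against 15. A promoter window of the gene, not always that one, was overlapped by an induced peak in 11 of 56 genes (19.6%, interval 10.2 to 32.4), against 10.1% of all, and by a non-induced peak in 0 (0 to 6.38), against 0.263%. Guidance genes with an induced peak that overlapped a window had 10 to 42 CpG (median 27), and those without had 2 to 56 (median 21). Over all genes these medians were 25 and 12. With 20 or more CpG, 7 of 30 guidance genes had such a peak (23.3%, 9.93 to 42.3), against 18.6% of all genes in this class. With 10 to 19 CpG 4 of 18 did (22.2%, 6.41 to 47.6), against 11.9%, and with under 10 CpG 0 of 8 (0 to 36.9), against 0.960%. In each class the share over all genes lay within the interval for guidance genes. The share of guidance genes with 20 or more CpG was 53.6%, against 38.9% of all genes.

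**Figure D5:**
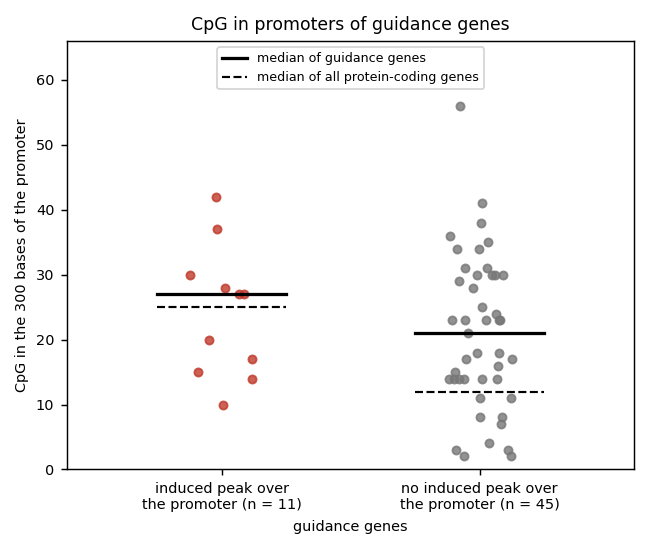
CpG dinucleotides in the 300 bases of the most CpG-rich promoter of each of 56 guidance genes (points), by whether an induced peak overlapped any promoter window of the gene. Solid lines are medians of guidance genes (27 with a peak, 21 without) and dashed lines medians of all protein-coding genes (25 and 12).

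Genes that act with these families were marked at their ends as follows, again beside 13.4% (induced) and 1.59% (non-induced) of all genes. Of 19 netrin and RGM receptors, ligands and relatives 5 had an induced peak (26.3%), led by the RGM receptor Neo1 (132), Rgma (124), the netrin receptor Unc5b (90.9) and Flrt3 (87.4), and 0 a non-induced peak. Of 15 co-receptor and adhesion genes 2 had one (13.3%), among them the glypican Gpc1 (103), and 0 a non-induced peak. Of 58 cytoplasmic effectors 13 had an induced peak (22.4%). The highest were at Srgap2, a Slit-Robo GTPase activating protein (244), the focal adhesion kinase gene Ptk2 (206), Rapgef2 (143) and Dock1 (93.5). In the non-induced list 2 of these effectors had a peak, Arhgef12, a RhoGEF that binds plexin-B (122), and Rasa1 (63.6). Of 5 shedding proteases 0 had a peak in either list.

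Marker genes of neurons, endothelium and the labelled cell type, fibroblasts, were counted in the same way. At an end, 1 of 12 neuronal (8.33%, Grin1, 77.9), 2 of 10 endothelial (20%, Kdr at 92.4 and Cldn5 at 63.3) and 3 of 12 fibroblast markers (25%, Thy1 at 115, Fn1 at 56.0 and Vim at 51.0) had an induced peak. The share of all genes was 13.4%. Within 5 kb or inside, 2 neuronal (16.7%), 5 endothelial (50%) and 5 fibroblast markers (41.7%) had an induced peak, against 21.4% of all genes. The order of the lists thus changed with the window, and no order was tested. None of the 3 lists had a non-induced peak at an end, against 1.59% of all genes.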

How the data were processed

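The sources were 2 deposited peak lists, 1 for induced and 1 for non-induced MEFs, each giving chromosome, start, end and a score. The score is the value that the authors' caller wrote for each peak in the deposited lists, and peak names that begin with MACS point to that caller, as far as the deposited lists tell. The submitters' processing notes name Bowtie2 and mm10. No source used here states the caller's version or threshold, the use of input or any pooling. Without read counts in the lists, depth is unknown. Input libraries were not used.

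Lists were assigned by the marks W and W/O in the library titles. Members and gene lists were chosen with earlier results of these data known. Genes, strands, starts and promoter sequences came from RefSeq tables of GRCm38.p6 (mm10 coordinates), without exons. A peak counted at a gene end within 1 kb, measured from its nearest edge, or within 5 kb or inside the gene. Peaks were shared from an overlap of 1 bp. Intervals are exact (Clopper-Pearson or Poisson) at 95%. CG was counted in windows of 300 bases, and since it is its own reverse complement the count holds for both strands. Text names follow a fixed rule: every gene with a peak at an end, the highest others of each list, and those next to the limits. The remaining genes with a peak were named after their values were seen. Of the related genes, 1 that the rule takes is not reported here. Counting was tested on simulated data. No test between conditions or gene sets was made. Counts were made in Python 3.11.15 with pandas 2.3.3 and numpy 2.4.6, intervals with SciPy 1.17.1 and figures with matplotlib 3.10.9. Alternatives changed windows, score limits, list sizes, overlap, chromosomes and the genes counted.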

Additional observations from a re-analysis of the deposited data

How the results depend on the processing

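The number of guidance genes with an induced peak at an end, 18, lay between 15 and 24 over 8 alternatives (windows of 500 bp and 5 kb, the start alone, peak midpoints, scores at or above the joint median of 61.6, lists of equal size, no peaks at ends of other genes, and no X or Y chromosome). Lists of equal size and leaving out X and Y could not change this count. The induced list is the shorter one, and no guidance gene on X had an induced peak. Within 5 kb of an end the share was 37.5%, against 18.4% of all genes. The single gene with a non-induced peak at an end became 0 at 500 bp, at the higher scores and with lists of equal size, and 3 at 5 kb. Sites of both lists numbered 1, and 2 with gaps of up to 1 kb allowed. Induced peaks inside guidance genes fell at 0.868 per Mb without the 5 kb next to the ends. Chosen after seeing the data, leaving out chromosomes 5 and 16 gave 4.03 per Mb for induced (2.50 to 6.17) and 2.69 for non-induced peaks (1.47 to 4.51). All genes on the other chromosomes had 3.26 and 3.66, each within the interval, so neither rate was apart from that of all genes. With all chromosomes the induced rate was not apart either (1.84 to 3.89, against 3.23), and the non-induced rate was higher (4.72 to 7.74, against 3.65). Without Robo2 the non-induced rate was 5.61, and without chromosome 16 it was 5.01. The cause was not tested. No paired analysis was possible because each condition has 1 list and no replicate numbers, and no list could be left out. Depth is unknown, so a site without a listed peak may lie under the caller's threshold.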
